A study of Homo sapiens with 12 samples.

Results

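The nuclear genes for subunits of the 5 oxidative phosphorylation complexes were followed through FXR knockdown and ionizing radiation in A549 cells. Members were the protein-coding genes outside the mitochondrial genome whose symbols begin with NDUFA, NDUFB, NDUFC, NDUFS or NDUFV (without the NDUFAF assembly factors), UQCR, COX4 to COX8 or ATP5, together with SDHA, SDHB, SDHC and SDHD. This name rule gave 91 of 58735 genes, of which 40 belong by name to complex I, 4 to complex II, 9 to complex III, 17 to complex IV and 21 to complex V. Of these, 83 were among the 16053 genes with enough counts to be tested.

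Complexes I to IV pass electrons from NADH and succinate to oxygen and, except for complex II, pump protons across the inner mitochondrial membrane. Complex V, the ATP synthase, lets the protons back and makes ATP. Most subunits are made from nuclear genes and imported, while the mitochondrial genome encodes a core set for complexes I, III, IV and V and none for complex II, so the complexes are built from the products of both genomes.

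A549 is an established human lung adenocarcinoma line. The cells were stably transfected with a control short hairpin RNA (shControl, labelled wild type) or with one against FXR (shFXR), 1 line each, and were sham irradiated or irradiated and harvested 3 days later, with 3 libraries described as biological replicates in each of the 4 groups. Neither the radiation dose nor the time of the sham harvest is stated in the labels or files used. Nothing says that replicates came from separate cultures, so p-values measure the spread between these libraries, which may be technical. The study asked what FXR does in the response to radiation, and FXR, a bile acid receptor, was taken as NR1H4.

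The libraries held 17140918 to 19036159 counts. NR1H4 stood at 22.3 to 25.3 CPM (scaled counts, comparable between libraries) in sham shControl libraries and 22.0 to 29.1 in irradiated ones, against 2.81 to 5.08 in sham and 2.84 to 3.10 in irradiated shFXR libraries, so the levels follow the labels. It was lower by -2.51 (log2) without and -3.05 with radiation. The keratins KRT8, KRT18 and KRT7 of epithelial cells were abundant, at 3420, 1357 and 1616 CPM on average, while the alveolar markers SFTPC, NKX2-1 and SFTPA1 averaged 0.176 CPM or less and the leukocyte markers PTPRC, CD3E and LYZ 0.023 CPM or less. Other markers of these lists were expressed: SFTPB averaged 1.23, NAPSA 2.24 and CD14 25.2 CPM, as were the endothelial markers PECAM1 and KDR at 0.730 and 0.914 CPM. No erythroid or striated muscle marker reached the level to be tested. Sham shControl library 2 stood apart from its replicates: the chi-square per degree of freedom between its counts and theirs was 22.1 and 25.4, against 2.54 to 16.0 for all other replicate pairs. It also had the highest sum of subunit mRNAs, 114% of the group mean. Most counts and medians over the members and the gene lists that rest on the sham shControl group are therefore also given without it, and single genes where their call was lost.

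Among the tested members the mean level ran from 0.473 CPM for NDUFA7 to 837 CPM for ATP5F1B, with a median of 88.0. The 8 untested members, of which 2 had no read in any library, had at most 5 counts in any library. They are the readthrough genes NDUFC2-KCTD14 and ATP5MF-PTCD1, the tissue-restricted isoforms COX4I2, COX6A2, COX7A1, COX7B2 and COX8C, and ATP5MGL. The isoform set of these cells was thus the ubiquitous one. Per kilobase of the principal transcript, COX4I1 had a level of 576 CPM against 0.0137 for COX4I2, COX6B1 had 918 against 1.503 for the testis isoform COX6B2, COX7A2 had 139 against 0.218 for the heart and muscle isoform COX7A1, and COX8A had 217 against 0.0335 for COX8C. On the same scale NDUFA4, counted with complex I by its name although the protein is now placed in complex IV, had 93.2 against 0.423 for NDUFA4L2. The 3 genes for the c-subunit of the ATP synthase rotor, whose mature proteins are identical, were close to each other, with 281 for ATP5MC1, 234 for ATP5MC2 and 229 for ATP5MC3.

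Summed over all tested members, the subunit mRNAs stood at 92.1% to 114% of the sham shControl mean in sham shControl libraries and at 95.0% to 108% in irradiated shControl libraries. Sham shFXR libraries stood at 83.1% to 87.2% and irradiated shFXR libraries at 72.4% to 80.3%. Neither range of shFXR libraries overlapped a range of shControl libraries. In sham shFXR cells their mean sums were 85.7% for complex I, 82.9% for II, 86.9% for III, 84.2% for IV and 83.3% for V, and in irradiated shFXR cells 78.2%, 76.2%, 78.1%, 78.5% and 72.9%. The reference mean includes sham shControl library 2, the highest of its group at 114% for all members. Percentages of a mean without it were not computed. The lowest sham shControl library stood at 91.7% for complex I, 96.1% for II, 91.6% for III, 90.4% for IV and 93.2% for V. From sham shControl to irradiated shFXR cells the share of each complex in the sum went from 25.1% to 25.6% for I, 3.72% to 3.69% for II, 14.8% to 15.1% for III, 24.4% to 25.1% for IV and 32.0% to 30.5% for V. Without ATP5F1B, the most abundant member, complex V stood at 76.0% to 84.8% in irradiated shFXR libraries. These levels are relative to the other genes of a library, and in bulk RNA fewer cells expressing a gene and less of its RNA per cell cannot be told apart.

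**Figure D1:**
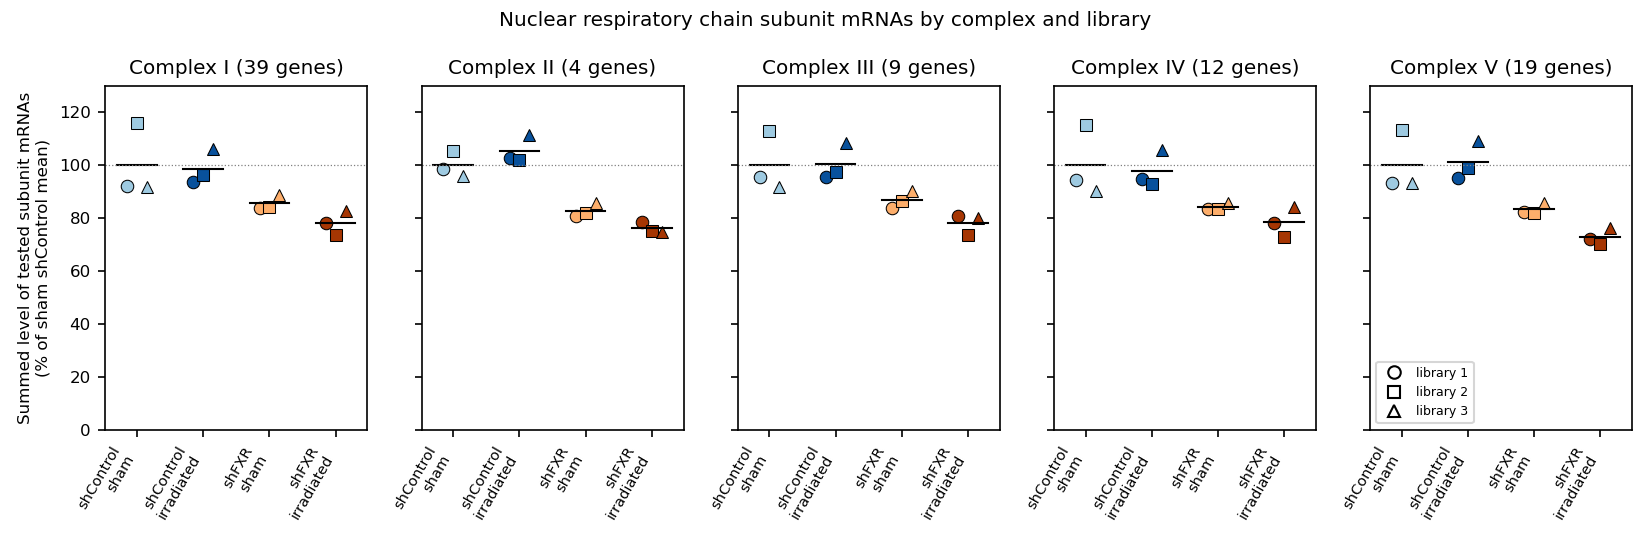
Summed level of the tested subunit mRNAs of each complex in each library, as a percentage of the sham shControl mean (y axis), for the 4 groups (x axis); each marker is 1 library and each line a mean of 3 libraries. In all 5 complexes the irradiated shFXR libraries lie below every shControl library, and library 2 of the sham shControl group is high in complexes I, III, IV and V.

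FXR knockdown without radiation lowered 36 of the 83 members and raised 1, where 19.4% of all tested genes were called lower and 18.0% higher (edgeR quasi-likelihood test, Benjamini-Hochberg adjusted p under 0.05 over all 16053 genes). Among the members the share called lower was 43.4%. Their median log2 fold change was -0.23, against -0.01 over all tested genes, and 77 of 83 lay below 0. In 41 members every shFXR library was below every shControl library, a pattern that 23.9% of all genes showed. Without sham shControl library 2, the number called lower was 21 and the median -0.10. In that fit 17.8% of all genes were called lower and their median was 0.01. Several members then lay above 0, among them COX5A at 0.09 and NDUFA3 at 0.20. The 15 lost calls were those of ATP5IF1, ATP5MF, ATP5MG, ATP5MPL, COX7C, NDUFA4, NDUFA4L2, NDUFA9, NDUFB1, NDUFB3, NDUFB4, NDUFB8, NDUFS3, SDHA and UQCR10, with adjusted p from 0.063 to 0.43. The groups of 41 members still did not overlap, a pattern then shown by 29.7% of all genes, since fewer libraries were compared. The number called lower was 23 without sham shFXR library 1, where 15.6% of all genes were, so the count depends on single libraries.

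After radiation the knockdown lowered 55 of the 83 members and raised 3, where 21.3% of all tested genes were called lower and 19.5% higher. This is 66.3% of the members, with a median of -0.40 against -0.001 over all genes, and 57 members had groups that did not overlap on the lower side and 4 on the higher side, as 27.1% and 25.8% of all genes did. Leaving out sham shControl library 2, which is not among the libraries compared here, gave 57 lower, where 22.9% of all genes were. The 2 knockdown comparisons share no library, but they compare the same 2 lines within the same fit. Of the members lower in either, 34 were lower in both, which is 94.4% of those lower without and 61.8% of those lower after radiation, 21 were lower only after radiation and 2, NDUFA4L2 and NDUFB8, only without it. Such an overlap was not computed over all tested genes. Without sham shControl library 2, 15 of the 36 calls without radiation were lost.

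**Figure D2:**
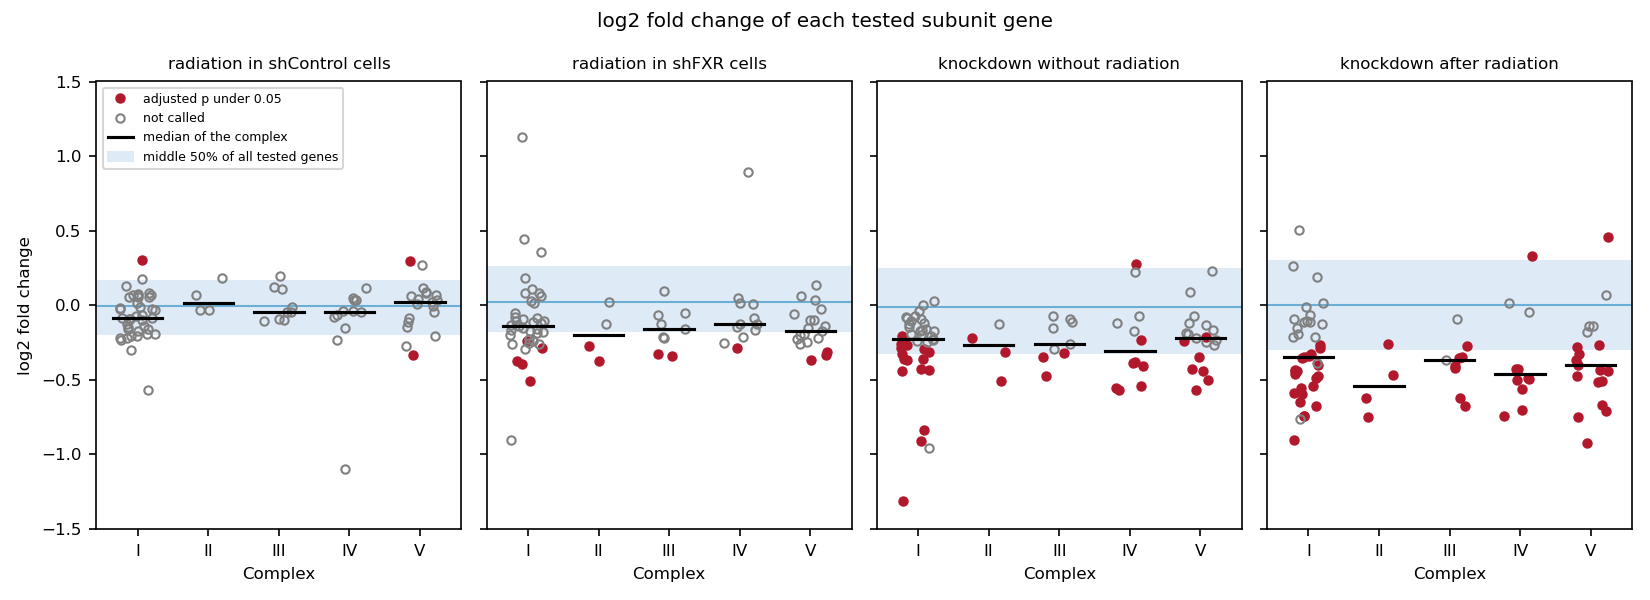
log2 fold change of each tested subunit gene (y axis) by complex (x axis) in 4 comparisons; filled points passed an adjusted p of 0.05, black lines are medians of a complex, and the blue line and band are the median and middle 50% of all tested genes. In both knockdown panels the medians of all 5 complexes lie below 0, and most points of the panel after radiation lie below the band; COX6B2 lies above the axis there, at 2.22.

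Every complex had members that fell. After radiation, the knockdown lowered 22 of 39 tested members of complex I (median -0.34), all 4 of complex II (-0.54), 7 of 9 of complex III (-0.37), 8 of 12 of complex IV (-0.46) and 14 of 19 of complex V (-0.40). Without radiation it lowered 16, 3, 3, 7 and 7, with medians of -0.23, -0.26, -0.26, -0.31 and -0.22. Without sham shControl library 2 the latter counts were 8, 2, 2, 6 and 3, and the medians -0.09, -0.21, -0.09, -0.18 and -0.08. Over all tested genes 21.3% were lower after and 19.4% without radiation, and 17.8% without radiation in the fit without that library. No test of one complex against another was made.

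Promoters are shown for 4 members that fell, because nuclear respiratory factor 1 (NRF1) and the ETS factor GABP are known regulators of many respiratory chain genes. RefSeq gave a promoter for 69 members, 65 of them tested, and both strands of the 250 bases before the start were searched for 4 motifs. The NRF1 motif has 1 free base and is not a palindrome, and its matches are the longest capitals below. The 4 matches in SDHA read the motif on the strand opposite to the one printed. The other motifs were CCGGAAG (GABP and other ETS factors), AANATGGCG (YY1) and GGGCGG (SP1). The motifs do not overlap one another in the stretches shown. NRF1 letters were found in 13 of the 65, against 10.1% of the 10489 promoters of tested protein-coding genes and 5.53% of all 27305. The ETS letters were in 16 (24.6%, against 15.5% and 8.82%), those of YY1 in 2 (3.08%, against 2.20% and 1.40%) and those of SP1 in 37 (56.9%, against 66.9% and 42.3%). In the 170 bases before the RefSeq start (GRCh38.p14, 5′ to 3′ on the gene's strand, matches in capitals), SDHA (chr5:218150-218319, plus strand) has 4 NRF1 matches that start 166, 117, 68 and 19 bases upstream. SDHD (chr11:112086703-112086872, plus strand) has an NRF1 match at 110 and an ETS match at 77. ATP5F1C (chr10:7788007-7788176, plus strand) has an SP1 match at 169 and an NRF1 match at 22. COX7A2 (chr6:75250299-75250468, minus strand) has none of the 4 motifs. Only a single RefSeq start per gene was searched. Of the 3 members higher after knockdown in irradiated cells, COX7A2L and ATP5MC2 have none and COX6B2 has an SP1 match at 230.
SDHA: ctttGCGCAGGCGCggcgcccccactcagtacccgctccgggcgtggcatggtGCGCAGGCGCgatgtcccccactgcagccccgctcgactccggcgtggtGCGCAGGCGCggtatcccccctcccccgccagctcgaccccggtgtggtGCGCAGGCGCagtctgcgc
SDHD: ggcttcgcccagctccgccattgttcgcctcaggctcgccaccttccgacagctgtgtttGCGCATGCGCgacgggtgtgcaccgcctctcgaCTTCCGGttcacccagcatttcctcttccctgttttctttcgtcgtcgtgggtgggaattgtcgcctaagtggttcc
ATP5F1C: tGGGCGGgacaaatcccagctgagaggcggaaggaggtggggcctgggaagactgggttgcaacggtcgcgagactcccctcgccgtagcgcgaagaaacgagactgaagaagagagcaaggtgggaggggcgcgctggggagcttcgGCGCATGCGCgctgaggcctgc
COX7A2: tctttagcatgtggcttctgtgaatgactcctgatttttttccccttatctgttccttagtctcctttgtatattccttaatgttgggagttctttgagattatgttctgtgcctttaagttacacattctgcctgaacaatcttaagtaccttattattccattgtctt
The knockdown after radiation lowered 9 of the 13 tested members with the NRF1 letters (median -0.29) and 34 of the 52 without them (-0.40), and 14 of the 16 with the ETS letters (-0.42) and 29 of the 49 without them (-0.34). A match is a run of letters, not a shown binding site.

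Complex I takes electrons from NADH. After radiation the knockdown lowered 4 of its 11 NDUFV and NDUFS genes (median -0.21), which include the flavin and iron-sulfur subunits, 9 of 15 NDUFA genes (-0.39) and 9 of 13 NDUFB and NDUFC genes (-0.43). Of all tested genes 21.3% were lower. Differences between these sub-groups were not tested. NDUFS1 (chr2:206114817-206159603, minus strand, the largest iron-sulfur subunit) had 93.3, 93.7 and 110 CPM in sham and 111, 125 and 132 in irradiated shControl libraries, and 94.1, 91.2 and 95.8 in sham and 77.6, 81.4 and 71.6 in irradiated shFXR libraries. It was the member with opposite calls in the 2 lines: radiation raised it in shControl cells (log2 fold change 0.31 ± 0.08 SE, adjusted p = 0.024) and lowered it in shFXR cells (-0.29 ± 0.08, adjusted p = 0.019), with no overlap of the groups in either. The first call was lost under 6 alternative settings. The second was lost in 4 fits that left out 1 shFXR library (adjusted p 0.055 to 0.10). Sham levels differed by only -0.08 (adjusted p = 0.47), whereas irradiated shFXR cells were lower by -0.67 ± 0.08 (adjusted p = 2.2e-06). The catalytic subunit NDUFS7 was lower in both knockdown comparisons, by -0.43 without and -0.34 after radiation. These calls were lost under 1 and 4 alternative settings. NDUFS3 was lower too, by -0.26 and -0.27, but its calls were lost under 16 and 7 alternative settings. Without sham shControl library 2 its adjusted p without radiation was 0.39. Without irradiated shControl library 3 that after radiation was 0.17. NDUFV1, which binds NADH, and NDUFS8 did not pass the test in any comparison, and NDUFS8 was 0.19 higher (log2) after knockdown in irradiated cells (adjusted p = 0.10).

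NDUFC2 and NDUFA10, accessory subunits of complex I, were low in all shFXR libraries whether irradiated or not. NDUFC2 (chr11:78068304-78080219, minus strand) had 27.7, 39.02 and 28.96 CPM in sham and 31.9, 28.7 and 29.5 in irradiated shControl libraries, against 15.03, 14.8 and 21.04 in sham and 15.4, 16.6 and 16.1 in irradiated shFXR libraries. NDUFA10 (chr2:239892450-240025402, minus strand) had 108, 122 and 98.6 and then 109, 106 and 107 CPM in shControl libraries, against 57.1, 61.2 and 65.5 and then 64.5, 62.3 and 65.6 in shFXR libraries. All shFXR libraries of both genes lay below all shControl libraries, and radiation moved neither gene past the test in either line. The knockdown changes were -0.91 ± 0.13 in both treatments for NDUFC2 (adjusted p = 2.0e-05 and 1.8e-05) and -0.84 ± 0.08 and -0.74 ± 0.08 for NDUFA10 (adjusted p = 8.8e-08 and 3.4e-07). Of the 12 tested genes within 1 megabase of NDUFC2, 2 were lower and 2 higher without radiation and 3 lower and 1 higher after it, with medians of -0.06 and -0.07. Of the 8 near NDUFA10, 1 was lower and 1 higher without radiation and 1 was higher after it, with medians of -0.02 and 0.09.

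Some other complex I genes by name fell in both treatments, with larger values after radiation. NDUFA1 had changes of -0.43 and -0.74, NDUFA4 of -0.27 and -0.59, NDUFB5 of -0.29 and -0.54 and NDUFB3 of -0.33 and -0.59, all of them called, while the difference between the treatments was called for none of the 4. Without sham shControl library 2 the calls of NDUFA4 and NDUFB3 without radiation were lost (adjusted p = 0.22 and 0.19). Not all values were larger after radiation: NDUFA2 had -0.36 and -0.35 and NDUFB8 -0.37 and -0.13. NDUFA6 and NDUFB6 were lowered by radiation itself in shFXR cells, by -0.51 (adjusted p = 0.0051) and -0.39 (adjusted p = 0.0078). NDUFA4L2, the hypoxia-induced relative of NDUFA4, had 4 to 19 counts per library, and its call without radiation (-1.31 ± 0.47, adjusted p = 0.035) was lost without sham shControl library 2 (adjusted p = 0.080). In 15 tested members of complex I no comparison gave a call. Among them NDUFA7, NDUFA13 and NDUFV2 were counted at about 1 CPM or less, and 75.9%, 44.1% and 82.9% of their exonic bases are shared with another annotated gene on the same strand, as are those of NDUFB8 (71.7%), NDUFA11 (67.0%) and ATP5PO (70.3%). Whether this lowered their counts was not tested.

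**Figure D3:**
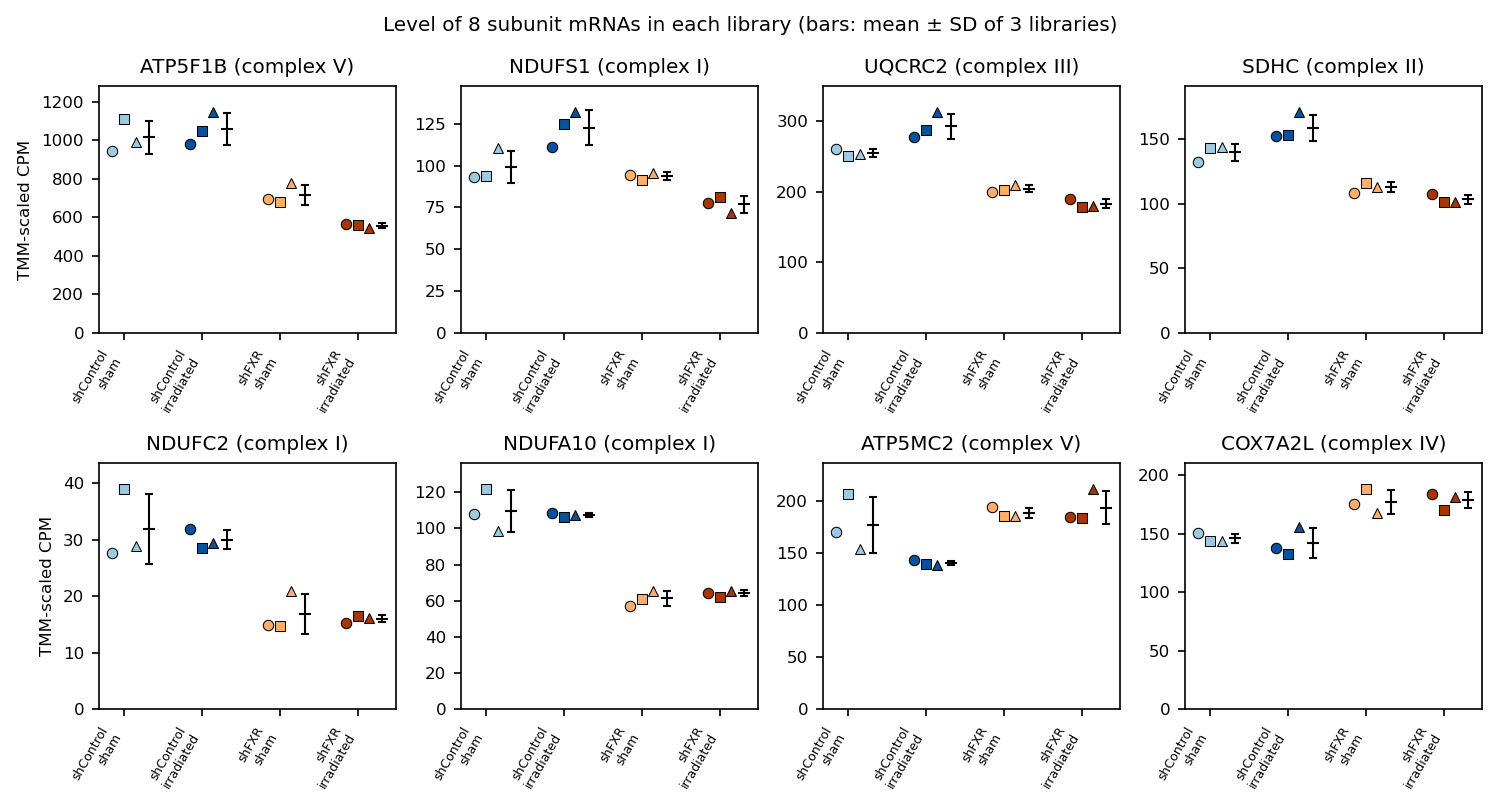
TMM-scaled CPM (y axis) of 8 subunit mRNAs in each library of the 4 groups (x axis); markers are libraries, bars the mean ± SD of 3 libraries. ATP5F1B, NDUFS1, UQCRC2 and SDHC are lowest in irradiated shFXR libraries, NDUFC2 and NDUFA10 are low in all shFXR libraries, and ATP5MC2 and COX7A2L are higher in irradiated shFXR than in irradiated shControl libraries.

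Complex II, succinate dehydrogenase, also belongs to the citric acid cycle and is wholly nuclear. All 4 of its subunits fell with the knockdown in irradiated cells. SDHD, one of the membrane anchors (chr11:112086773-112120013, plus strand), had 64.9, 62.7 and 57.7 CPM in sham and 60.1, 53.5 and 67.4 in irradiated shControl libraries, then 44.3, 42.7 and 43.2 in sham and 35.9, 36.2 and 35.5 in irradiated shFXR libraries. Its 4 groups formed 3 levels, since the shControl groups overlapped while sham and irradiated shFXR libraries were apart. The knockdown changes were -0.51 ± 0.08 (adjusted p = 7.4e-05) and -0.75 ± 0.08 (adjusted p = 6.2e-07), and that of radiation in shFXR cells -0.28 ± 0.09 (adjusted p = 0.027). This radiation call of SDHD was lost in 6 fits that left out 1 shFXR library (adjusted p 0.053 to 0.081). SDHC, the other anchor (chr1:161314257-161375340, plus strand), had 133, 143 and 144 CPM in sham and 153, 153 and 171 in irradiated shControl libraries, and 109, 116 and 113 in sham and 107, 102 and 101 in irradiated shFXR libraries. It was lower by -0.31 ± 0.07 without and -0.62 ± 0.07 after radiation (adjusted p = 0.0017 and 7.6e-07). SDHB, the iron-sulfur subunit, was lower by -0.38 after radiation in shFXR cells (adjusted p = 0.0036) and by -0.47 against irradiated shControl cells (adjusted p = 1.8e-04). SDHA, the flavoprotein that oxidizes succinate, was lower by -0.22 and -0.26 (adjusted p = 0.018 and 0.0050), of which the first was lost without sham shControl library 2 (adjusted p = 0.082). SDHA has near-identical pseudogenes, and how the counting treated reads that match both is not given.

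Complex III passes electrons to cytochrome c. UQCRC2, a core protein (chr16:21952660-21983660, plus strand), had 261, 251 and 253 CPM in sham and 278, 288 and 313 in irradiated shControl libraries, and 200, 203 and 210 in sham and 191, 179 and 180 in irradiated shFXR libraries. None of the 4 ranges overlapped. Knockdown gave -0.32 ± 0.07 (adjusted p = 9.0e-04) and -0.68 ± 0.07 (adjusted p = 1.3e-07), while the radiation effects of 0.20 in shControl and -0.16 in shFXR cells each missed the threshold (adjusted p = 0.064 and 0.11). Its partner UQCRC1 went the other way in size, with -0.48 without and -0.27 after radiation (adjusted p = 1.6e-04 and 0.013). The Rieske iron-sulfur protein UQCRFS1 fell with radiation in shFXR cells by -0.34 (adjusted p = 0.0074), and UQCR10 had knockdown changes of -0.34 and -0.62. UQCRB and UQCRHL gave no call; UQCRHL, a retrocopy of UQCRH, had a level of 3.27 CPM per kilobase against 404, and reads of the pair may have been split.

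Complex IV reduces oxygen. COX7A2 (chr6:75237675-75250323, minus strand) had 125, 143 and 119 CPM in sham and 127, 127 and 146 in irradiated shControl libraries, against 88.7, 89.1 and 86.4 in sham and 82.7, 72.8 and 83.3 in irradiated shFXR libraries. The lines did not overlap, with -0.55 ± 0.08 (adjusted p = 2.8e-05) and -0.74 ± 0.08 (adjusted p = 5.8e-07). COX7B, COX6A1 and COX8A had -0.38, -0.57 and -0.54 without and -0.70, -0.49 and -0.56 after radiation. COX5B and COX6B1 fell in both comparisons as well, by -0.40 and -0.38 without and -0.49 and -0.43 after radiation, and COX6C only passed the test after radiation (-0.50). COX4I1 and COX5A, 2 subunits that join the complex early in assembly, gave no call in any comparison; in irradiated cells their knockdown differences were 0.01 and -0.05. COX7A2L, which takes part in joining complexes III and IV into supercomplexes (chr2:42333546-42425088, minus strand), had the opposite sign. It had 151, 144 and 144 CPM in sham and 138, 132 and 156 in irradiated shControl libraries, but 176, 188 and 168 in sham and 184, 171 and 181 in irradiated shFXR libraries. Every shFXR library was above every shControl library, by 0.28 ± 0.07 and 0.33 ± 0.07 (adjusted p = 0.0059 and 0.0014). COX6B2 was also called higher in irradiated shFXR cells (2.22 ± 0.53, adjusted p = 0.0022), on 20, 25 and 25 counts against 9, 4 and 2, with 97.9% of its exonic bases shared with another annotated gene on the same strand.

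Complex V includes the most abundant member of the set, ATP5F1B. ATP5F1B, the catalytic beta subunit (chr12:56638175-56646068, minus strand), had 945, 1113 and 990 CPM in sham and 981, 1050 and 1145 in irradiated shControl libraries, then 696, 678 and 777 in sham and 568, 561 and 543 in irradiated shFXR libraries. The shControl groups overlapped, sham shFXR libraries were lower and irradiated shFXR libraries lower again. The knockdown changes were -0.50 ± 0.08 (adjusted p = 7.5e-05) and -0.93 ± 0.08 (adjusted p = 3.0e-08), the latter a 1.90-fold lower level, and radiation in shFXR cells gave -0.36 ± 0.08 (adjusted p = 0.0037). The other subunits of the catalytic head changed less. ATP5F1A, the alpha subunit, had -0.07 without (adjusted p = 0.45) and -0.26 after radiation (adjusted p = 0.0046). ATP5F1C, the gamma shaft (chr10:7788129-7807815, plus strand), had 233, 238 and 224 CPM in sham and 228, 214 and 255 in irradiated shControl libraries, and 204, 220 and 194 in sham and 166, 155 and 170 in irradiated shFXR libraries, so that only the irradiated shFXR group stood below all other libraries. It changed by -0.51 ± 0.08 after radiation (adjusted p = 2.5e-05). ATP5F1D and ATP5F1E gave no call.

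The 3 c-subunit genes went different ways, although they code for the same mature protein. ATP5MC3 (chr2:175176258-175184607, minus strand) had 198, 251 and 207 CPM in sham and 204, 207 and 243 in irradiated shControl libraries, against 163, 149 and 171 in sham and 130, 129 and 129 in irradiated shFXR libraries. ATP5MC2 (chr12:53632726-53677408, minus strand) had 170, 206 and 154 in sham and 143, 140 and 138 in irradiated shControl libraries, and 194, 186 and 185 in sham and 184, 184 and 211 in irradiated shFXR libraries. ATP5MC3 was thus below every shControl library in all shFXR libraries, while ATP5MC2 was lowest in irradiated shControl libraries. The knockdown gave -0.44 and -0.75 for ATP5MC3 (adjusted p = 6.4e-04 and 1.5e-06), 0.09 and 0.46 for ATP5MC2 (adjusted p = 0.45 and 3.4e-04) and -0.14 and -0.43 for ATP5MC1 (adjusted p = 0.30 and 0.0016). Per kilobase, the c-subunit level of irradiated shFXR cells was 259 CPM from ATP5MC2, 235 from ATP5MC1 and 163 from ATP5MC3, whereas that of sham shControl cells was 237, 300 and 275. ATP5IF1, the inhibitor that stops the synthase from burning ATP, had 73.7, 93.7 and 77.5 CPM in sham and 97.3, 99.3 and 104 in irradiated shControl libraries, and 72.9, 67.9 and 66.1 in sham and 73.1, 69.6 and 84.5 in irradiated shFXR libraries. It was higher after radiation in shControl cells by 0.30 ± 0.09 (adjusted p = 0.041) with no overlap, and lower in irradiated shFXR than irradiated shControl cells by -0.40 ± 0.09 (adjusted p = 0.0013). The membrane subunits ATP5MF and ATP5ME had -0.43 and -0.57 without and -0.71 and -0.67 after radiation.

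Radiation alone did little to these genes in shControl cells. It raised NDUFS1 and ATP5IF1 and lowered ATP5MC2, so that 2 of 83 members were called higher and 1 lower, where 5.07% and 4.96% of all tested genes were; the median was -0.04 against -0.003 over all genes. Without sham shControl library 2, 1 was higher and none lower, and the median was 0.08. Each of the 3 calls was lost when some single library was left out or when only the compared groups were fitted, with adjusted p of 0.11, 0.12 and 0.092 in the latter fit. In shFXR cells radiation lowered 13 members and raised none, where 10.2% of all tested genes were called lower and 10.9% higher. No member had an unadjusted p under 0.05 for a rise; DESeq2 called none higher and voom with sample weights 2. The 13 were 5 genes of complex I, 2 of II, 2 of III, 1 of IV and 3 of V, and the median was -0.15 against 0.02 over all genes. At 15.7%, the share of members called lower was not far from that of all genes, but 37 members had irradiated shFXR libraries that all lay below the sham ones, as 21.1% of all genes did, and the count of calls was 31 without sham shControl library 2, which is in neither of these groups. In that fit 13.9% of all genes were called lower. The count of members was 7 without sham shFXR library 1 or irradiated shFXR library 2, where 6.95% and 7.32% of all genes were lower. It was 8 without the libraries 3 of either group, where 6.61% and 6.47% were.

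Each radiation comparison shares libraries with each knockdown comparison, so their values stand side by side and no correlation between them was computed. The difference between the 2 radiation responses was called lower for 5 members and higher for none, where 7.67% and 7.31% of all tested genes were. A further 4 members had an unadjusted p under 0.05 for a higher difference, DESeq2 called 1 and voom with sample weights 3. The 5 were NDUFS1 at -0.59 ± 0.12 (adjusted p = 0.0033), ATP5F1B at -0.42 ± 0.12 (adjusted p = 0.020), UQCRC2 at -0.36 ± 0.10 (adjusted p = 0.018), ATP5F1C at -0.34 ± 0.11 (adjusted p = 0.039) and SDHC at -0.31 ± 0.10 (adjusted p = 0.041). The median over members was -0.12 against 0.01 over all genes. The median was -0.28 without sham shControl library 2, but -0.06 and -0.05 without sham shControl library 1 or 3, -0.07 without irradiated shControl library 3, and -0.18 without irradiated shControl library 1 or irradiated shFXR library 3. The count was 29 lower and 1 higher without sham shControl library 2, without irradiated shControl library 1 it was 9 lower, without any 1 shFXR library or sham shControl library 1 it was 1 to 3, and without irradiated shControl library 3 it was 1. Of all genes, 10.4% were called lower without sham shControl library 2. That share was 10.7% without irradiated shControl library 1 and 3.49% without irradiated shControl library 3. For ATP5MC2 the difference of 0.37 missed the threshold (adjusted p = 0.052).

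**Figure D4:**
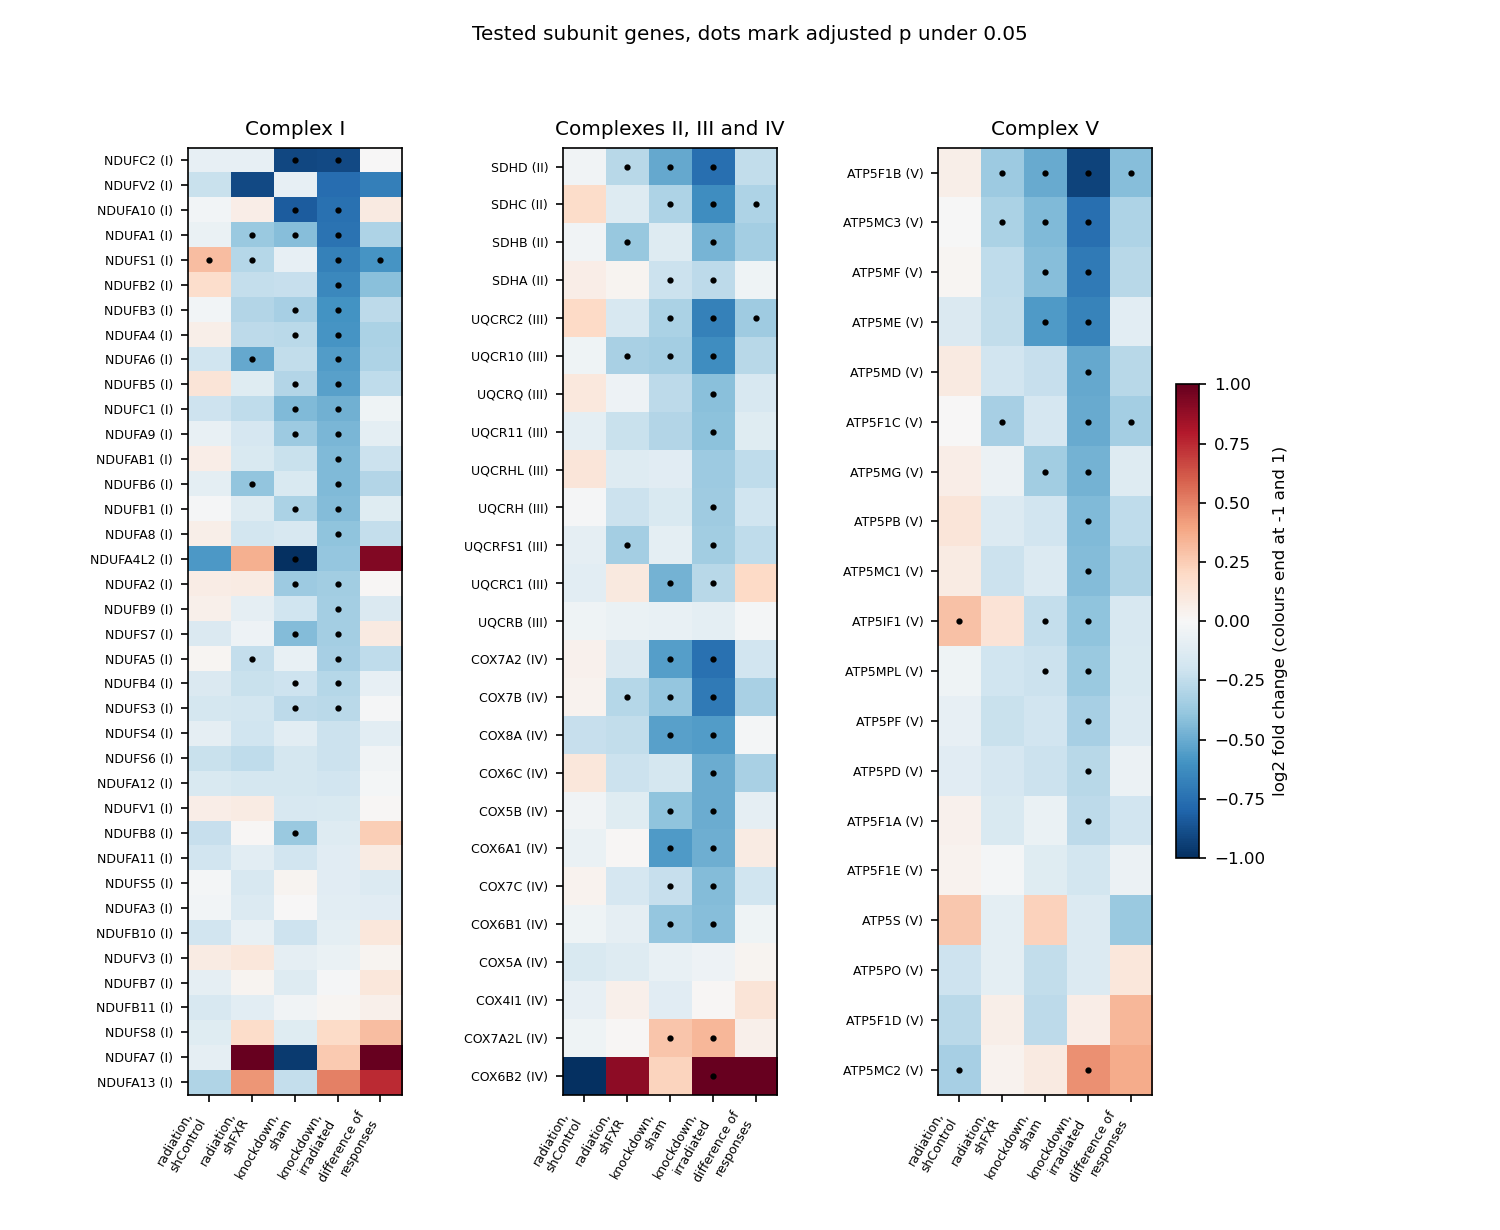
log2 fold change of 82 of the 83 tested subunit genes (rows, by complex) in the 5 comparisons (columns); red is higher, blue lower, colours end at -1 and 1, and dots mark an adjusted p under 0.05. Dots gather in the 2 knockdown columns, mostly on blue, and COX7A2L, COX6B2 and ATP5MC2 are the red genes with a dot after radiation.

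Other genes of the pathway were looked at as lists. For all list counts here and below, the knockdown lowered 19.4% and raised 18.0% of all tested genes without radiation. After radiation it lowered 21.3% and raised 19.5%. Radiation in shFXR cells lowered 10.2% and raised 10.9%. Without sham shControl library 2, knockdown without radiation lowered 17.8%, and radiation raised 1975 of 16419 genes in shFXR cells. Of the 13 mRNAs of the mitochondrial genome, the knockdown lowered 12 without radiation (median -0.50), among them MT-CO1 by -0.65 and MT-CO3 by -0.70, and 4 after radiation (median -0.12). Without sham shControl library 2, which had the highest share of mitochondrial counts, it lowered 6 without radiation (median -0.24), with MT-CO1 at -0.51 and MT-CO3 at -0.46. In shFXR cells radiation raised 3 and lowered none (median 0.29), with MT-ND5 at 0.49 and MT-ND6 at 0.55, and without that library it raised 10. For MT-ND5 and MT-ND6 the difference between the radiation responses passed the test, at 0.43 and 0.67, the opposite sign to that of the 5 nuclear members; without that library it was 0.33 (adjusted p = 0.065) and 0.41 (adjusted p = 0.025). The mitochondrial and the nuclear mRNAs were not tested against each other. Counts of the mitochondrial genome made up 12.9% to 16.8% of sham and 13.3% to 16.3% of irradiated shControl libraries, and 9.996% to 11.2% of sham and 12.3% to 13.1% of irradiated shFXR libraries. Poly-T selection was used, and its effect on mitochondrial mRNAs was not tested.

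Of 17 citric acid cycle and pyruvate dehydrogenase genes, the knockdown lowered 8 without and 15 after radiation and raised 0 and 1 (medians -0.19 and -0.46). Of all tested genes 19.4% and 21.3% were lower. Without sham shControl library 2 it lowered 6 of the 17 without radiation (median -0.15), and 17.8% of all genes. Several counts of assembly factors below are near these shares. PDHB, a subunit of pyruvate dehydrogenase, changed by -0.70 and -0.90, and SUCLA2, of succinyl-CoA ligase, by -0.54 and -0.999. Cytochrome c, CYCS, fell with radiation in shFXR cells by -0.47 and was lower by -0.66 after knockdown in irradiated cells, with a difference of responses of -0.61 (adjusted p = 0.0021). All 3 tested genes of the cytochrome list, of which CYCS and CYC1 encode cytochrome c and c1, were lower in irradiated shFXR than irradiated shControl cells. Assembly factors were mixed for complex I, with 7 of 19 lower and 3 higher after radiation, and mostly lower for complex IV, with 13 of 23 lower and none higher. COA3, an assembly factor of complex IV, changed by -1.42 and -1.87. Of 6 tested complex V factors the knockdown lowered 1 and raised 1 without radiation and lowered 3 and raised 1 after it: TMEM70, needed for the ATP synthase, changed by -0.61 and -0.92, and the insertase OXA1L by 0.21 and 0.49. SDHAF3, an assembly factor of complex II, was lower by -0.43 and -0.65, the 1 call among 4 such factors in each knockdown comparison, and of 6 complex III factors 3 were lower after radiation, UQCC1 among them at -0.36. Without sham shControl library 2, the calls after knockdown without radiation went from 2 to 5 higher with 1 lower for complex I factors, from 1 to 0 higher with 1 lower for complex III, and from 4 to 3 lower and 1 to 2 higher for complex IV, while the counts for complexes II and V and for the biogenesis regulators and epithelial markers were equal.

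The regulators of mitochondrial biogenesis gave no common direction, with 5 of 15 tested higher and 2 lower after knockdown without radiation and 5 higher and 4 lower after radiation. Of all tested genes 18.0% were higher and 19.4% lower without radiation, and 19.5% and 21.3% after it. PPARGC1A, which encodes the coactivator PGC-1α, had a mean of 14.3 and 15.9 CPM in sham and irradiated shControl and 4.63 and 4.17 CPM in sham and irradiated shFXR cells, a change of -1.62 and -1.93. NRF1 itself gave no call, at -0.07 and 0.06. TFAM and TFB2M, which start transcription of the mitochondrial genome, fell with radiation in shFXR cells by -0.52 and -0.39, and their differences of responses were -0.55 and -0.70. MYC was higher by 0.94 and 1.01. Of 12 hypoxia markers 5 were lower and 3 higher in irradiated shFXR cells, with ADM at -0.81.

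Other features moved with the groups. MKI67, a marker of dividing cells, had a mean of 52.2 and 19.4 CPM in sham and irradiated shControl cells and 86.1 and 5.23 CPM in sham and irradiated shFXR cells, so that irradiated shFXR cells had the least. Of the 6 epithelial markers 5 were lower without and 4 lower and 1 higher after radiation with the knockdown, among them KRT8 by -1.09 and -1.76, and the leukocyte and macrophage marker CD14, with group means of 45.8 and 32.3 CPM in sham and irradiated shControl and 8.66 and 14.05 CPM in sham and irradiated shFXR cells, was lower by -2.40 and -1.20 while PTPRC and CD3E were near 0. The alveolar marker SFTPB, at a mean of 3.07 CPM or less in every group, was lower by -4.19 and -2.41. Of the endothelial markers PECAM1, at a mean of 1.52 CPM or less, was lower by -2.47 and -2.29, KDR, at 1.66 CPM or less, was higher after radiation by 1.36, and VWF and CDH5 were too low to test. Their part in the change of the subunit mRNAs was not tested. Many subunit transcripts are short: 51 of the 83 tested members have a principal transcript under 1000 bases. All protein-coding nuclear genes in that range had medians of -0.12 without and -0.09 after radiation with the knockdown, against -0.23 and -0.37 for the members. By the longer gene length of the deposited table, the 118 such genes under 1000 bases had medians of -0.23 and -0.22, with 40 and 39 called lower, and the 9 members among them -0.34 and -0.51. By principal transcript, over 2000 bases the medians were 0.04 and -0.002 for all such genes and -0.22 and -0.46 for the 15 members. The band medians without radiation rest on all sham shControl libraries and were not computed without library 2. Leaving that library out moved the median of all members without radiation from -0.23 to -0.10. The part of transcript length in the change of the subunit mRNAs was not tested.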

How the data were processed

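RNA was measured in 12 libraries of A549 cells, 3 in each of 4 groups, taken from the titles. Per the labels' protocols, poly-T beads captured the mRNA, and random hexamers primed the cDNA. The authors deposited 1 table of raw counts per gene, and per the submitters' processing notes the build was hg38 and DESeq2 1.20.0 was used. The aligner, counting tool and strand setting are not given. All 58735 genes have the coordinates and merged exon lengths of GENCODE 29.

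The whole table was fitted with edgeR 4.0.16 in R 4.3.3: filterByExpr (minimum count 10, minimum total 15), TMM scaling, 1 coefficient per group over all 12 libraries and the quasi-likelihood test (common biological coefficient of variation 0.0874, with 8 residual and 11.9 prior degrees of freedom), with Benjamini-Hochberg adjustment over the 16053 genes kept and calls at 0.05. Each standard error was taken from F, as the log2 change over its root. CPM are edgeR's scaled counts on the TMM library sizes. The scripts were tested on simulated data. Alternatives were RLE scaling, total counts, no filter, a mean of at least 5 CPM, the mitochondrial genome left out, a fit of the compared groups alone, a block for the replicate number, DESeq2 1.42.0, limma 3.58.1 voom with sample weights, and each library left out in turn. Medians under these settings, counts by complex and list without 1 library and bands of principal transcript length were added after seeing the data. The members and lists were chosen with earlier results of these data known, so their counts are descriptions. Named are the succinate dehydrogenase genes, core subunits and paralog sets, the called members with the smallest adjusted p in each complex and comparison, and up to 2 called genes of each other list. Further genes given for function, and ones that stand out, were chosen after their values were seen. Levels per kilobase use the shortest APPRIS principal transcript. Promoters are from RefSeq (GRCh38.p14), and 22 members had no entry. For 1 tested member, which stays in the counts, no values of its own are reported here.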

Additional observations from a re-analysis of the deposited data

Results flagged for a closer look

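For 5 members the response to radiation in shFXR cells differed from that in shControl cells by the test of the difference itself (edgeR quasi-likelihood interaction contrast, 3 libraries a group, adjusted over 16053 genes). These were 5 of 83 tested members, all called lower, where 7.67% of all tested genes were called lower and 7.31% higher. The count of members was not above that share. NDUFS1 rose with radiation in shControl cells and fell in shFXR cells, a difference of -0.59 on the log2 scale that kept its call under every alternative run. The rise by itself lost its call under 6 alternatives and the fall under 4. For ATP5F1B the difference was -0.42, and its adjusted p was 0.060 without irradiated shControl library 3 or sham shFXR library 3 and 0.059 without irradiated shFXR library 3. For UQCRC2 it was -0.36, with an adjusted p of 0.051 without irradiated shControl library 3 and 0.052 without irradiated shFXR library 3. The differences of ATP5F1C, at -0.34, and SDHC, at -0.31, lost their calls under 10 and 11 alternatives, with adjusted p up to 0.11.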

How the results depend on the processing

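No called value of a named gene changed sign. For radiation in shControl cells, with 2 members higher and 1 lower, the balance turned to 0 higher and 1 lower without sham shControl library 1, and the 2 counts were equal under 10 other alternatives. Of the counts of called members, 150 values under an alternative were within 1.5 times of the main count and 58 were not. With total counts as the scale, radiation gave 1 higher in shControl and 24 lower in shFXR cells, knockdown without radiation 2 higher, and the difference of responses 1 higher and 8 lower. Of all genes, 11.6% were then lower for radiation in shFXR cells and 7.46% for the difference. With no filter on low counts, the lower counts were 2 and 24 for radiation in shControl and shFXR cells, and the difference 2 higher and 9 lower. Fitting only the compared groups gave 0 higher and 0 lower for radiation in shControl cells and 2 higher and 36 lower in shFXR cells. The share of all genes called lower was then 1.94% in shControl and 17.2% in shFXR cells. Voom with sample weights gave 4 higher in shControl, 2 higher and 35 lower in shFXR cells, 3 and 5 higher for knockdown without and after radiation, and 3 higher and 25 lower for the difference. It called 18.5% of all genes lower for radiation in shFXR cells and 13.6% for the difference. A mean of at least 5 CPM and DESeq2 each gave 1 higher for the difference. With 1 library left out, the ranges were 0 to 3 higher and 0 to 2 lower for radiation in shControl cells, 0 to 1 and 7 to 31 in shFXR cells, 1 to 2 and 21 to 41 for knockdown without radiation, 3 to 4 and 49 to 57 after radiation, and 0 to 4 and 1 to 29 for the difference. Without sham shControl library 2 came the 21 lower for knockdown without radiation, the 31 for radiation in shFXR cells and the 29 for the difference. In these 3 comparisons the share of all genes called lower was then 17.8%, 13.9% and 10.4%, against 19.4%, 10.2% and 7.67% in the main fit. The lowest count of radiation in shFXR cells, 7, came without sham shFXR library 1 or irradiated shFXR library 2. That of the difference, 1, came without irradiated shControl library 3 or irradiated shFXR library 3. Same-numbered libraries did not deviate together (correlations -0.14 to 0.23), so the numbers do not pair them; with the replicate block the lower counts were 12 for radiation in shFXR cells, 31 and 55 for knockdown without and after radiation, and 3 for the difference. Member medians ranged from -0.28 to -0.10 for knockdown without and -0.44 to -0.34 after radiation, from -0.18 to -0.11 for radiation in shFXR from -0.10 to 0.08 in shControl cells, and from -0.28 to -0.05 for the difference. Of 84 called values of named genes, 61 kept their call under every alternative run. The causes of these changes were not tested. Depth limits the members under 1 CPM.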
